A study of Mus musculus with 24 samples.

Results

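Phospholamban knockout (PLB KO) hearts were compared with nontransgenic (NTG) hearts at 12 months of age. The comparison rests on the 3 arrays titled PLB KO and the 3 titled NTG at 12 months, 6 of the 24 arrays of the series, chosen by their titles alone. The series measured left ventricular RNA of mice on Affymetrix arrays in 4 genotypes at 4 and 12 months, with 3 biological replicates in each of the 8 groups. Besides the PLB KO and NTG mice there were mice with an α-tropomyosin transgene (Tm180) and mice with both changes (Tm180/PLB KO), the subject being a model of familial hypertrophic cardiomyopathy. The PLB KO mice of the main comparison carry no transgene and their NTG controls carry neither change. The labels give no sex, no strain and no account of how the knockout allele was made. They do not say whether an array holds 1 animal or a pool, so p-values measure the spread between these samples.

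Phospholamban is a small membrane protein of the sarcoplasmic reticulum, the calcium store of muscle. It binds the calcium pump SERCA and lowers its affinity for calcium, and β-adrenergic signalling relieves that brake by phosphorylating it. In the ventricle the pump refills the store after each beat, so phospholamban sets how quickly the muscle relaxes and how much calcium the next beat can release.

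Values are deposited log2 expression values, so a difference of 1 is a 2-fold difference in the array signal. Values of single arrays are given in the order of replicates 1, 2 and 3. Differences are PLB KO minus NTG with their standard error (SE), from a limma model of all 8 groups. A gene was called when its p-value, adjusted over the 15918 genes tested by the Benjamini-Hochberg method, was under 0.05. The number of arrays, 3 a group, limits the precision. The median SE of a difference was 0.159.

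The knocked-out gene Pln was measured at 13.71, 13.82 and 13.84 on the NTG arrays and at 6.37, 5.66 and 6.63 on the PLB KO arrays. On every NTG array it was among the brightest genes. On the PLB KO arrays 51.8%, 38.3% and 56.3% of all 19938 genes measured, before the filter on dim genes, were dimmer. Pln fell by 7.57 ± 0.324 on the log2 scale (limma, adjusted p = 4.8e-12). The knockout or control status in all 6 labels was therefore borne out by Pln, which does not check their age or the absence of the transgene. The labels do not say which part of the gene the probes read.

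The ventricular light chain genes were bright on all 6 arrays. Myl2, the ventricular regulatory light chain, stood at 13.19, 13.24 and 13.12 in NTG and at 13.26, 13.25 and 13.04 in PLB KO. Myl3, the ventricular essential light chain, ran from 12.41 to 12.85 over the 6 arrays. The ventricular transcription factor genes were dimmer, with Irx4 at 7.58 to 8.21 and Hey2 at 5.72 to 6.60.

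Without Pln, its partners at the calcium pump gave small differences, and none of them was called. Atp2a2 encodes the cardiac pump itself. Its values were 13.47, 13.54 and 13.48 in NTG and 13.44, 13.39 and 13.36 in PLB KO, a difference of -0.10 ± 0.076 (adjusted p = 0.9998 in limma). All 3 knockout arrays lay below the NTG arrays, by a difference close to its own error. The other pump genes, Atp2a1 and Atp2a3, differed by -0.11 and -0.11.

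Among the small pump inhibitors, Mrln, which encodes myoregulin, differed by -0.09 and Sln, which encodes sarcolipin, by 0.56 ± 0.286. Sln is an atrial gene in the adult mouse and is given again with the atrial genes below. Hrc, a histidine-rich calcium-binding protein in the lumen of the store, stood at 10.81, 11.07 and 10.81 in NTG and at 10.77, 10.75 and 10.40 in PLB KO. The knockout arrays again lay below all NTG arrays, by -0.26 ± 0.138 in the mean, without a call. S100a1, a calcium sensor of cardiac muscle, differed by 0.10, Hax1, a binding partner of phospholamban, by -0.04 and Hspb6, a small heat shock protein, by 0.04. The protein phosphatase 1 genes, whose enzyme removes phosphate from phospholamban, lay between -0.10 for Ppp1r3a and 0.08 for Ppp1r2, with Ppp1ca, Ppp1cb, Ppp1cc and Ppp1r1a between them. Tmem38b, a cation channel of the store, differed by -0.18. Of the 17 genes measured in this list 1 was called, Pln, and 8 had a higher and 9 a lower mean in PLB KO.

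Over all genes, 13 were called, 0.0817% of those tested. Of these 5 rose (0.0314%) and 8 fell (0.0503%), Pln among them. The 13 differed at least 1.5-fold, the smallest difference being 0.64, and in each the 3 knockout arrays lay wholly above or wholly below the 3 NTG arrays. That separation alone was met upward by 636 genes (4% of all) and downward by 433 (2.72%). In all, 561 genes, the called ones included, had an unadjusted p under 0.05 in limma, which is 3.52% of those tested, 1.92% higher and 1.6% lower. Of all genes tested 56.8% had a higher mean in PLB KO.

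**Figure D1:**
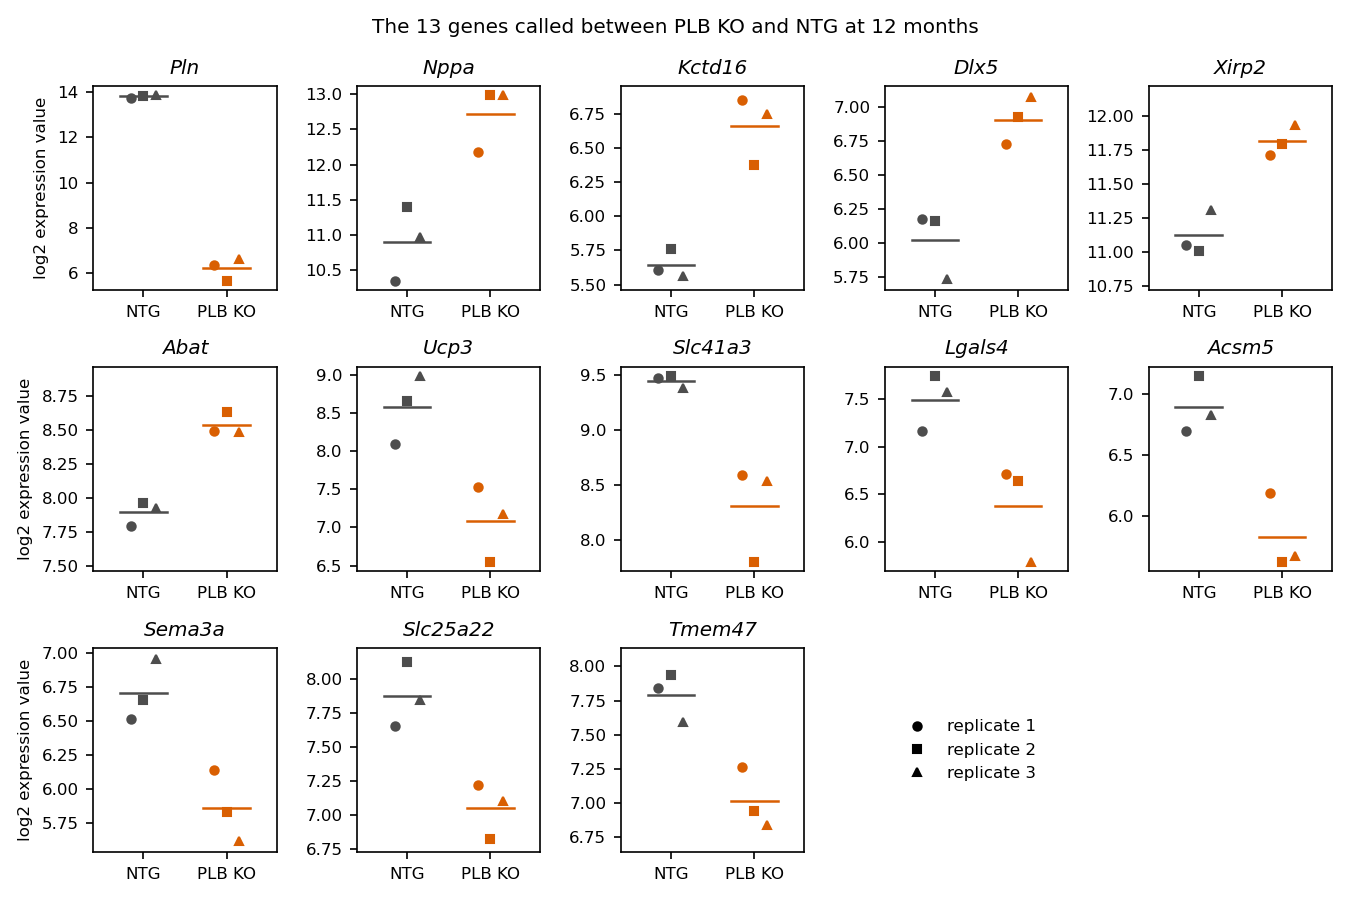
Log2 expression values of the 13 called genes on the 3 NTG and 3 PLB KO arrays of 12 months, with a line at each group mean and a marker shape for each replicate number. In every panel the arrays of the groups do not overlap, and Pln falls from 13.71 or more in NTG to 6.63 or less in PLB KO.

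The called genes that rose were Nppa, Kctd16, Dlx5, Xirp2 and Abat. Nppa encodes atrial natriuretic peptide, a hormone made by atrial muscle throughout life and by ventricular muscle in the fetus and under load. It stood at 10.35, 11.40 and 10.97 in NTG and at 12.17, 12.98 and 12.98 in PLB KO. The rise was 1.81 ± 0.28 on the log2 scale, or 3.50-fold (limma, adjusted p = 0.0093). PLB KO replicate 1 was the lowest knockout array and NTG replicate 2 the highest control, and these still did not overlap.

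The 250 bases before the start of Nppa are shown because it was the called gene that rose most and its proximal promoter is a textbook case of cardiac gene control. They lie on the plus strand at chr4:148000472-148000721 of GRCm38.p6 (RefSeq). Capitals mark TATAAA, the TATA box letters, and GATAA, read on either strand, the letters bound by GATA factors of the heart.
Nppa upstream: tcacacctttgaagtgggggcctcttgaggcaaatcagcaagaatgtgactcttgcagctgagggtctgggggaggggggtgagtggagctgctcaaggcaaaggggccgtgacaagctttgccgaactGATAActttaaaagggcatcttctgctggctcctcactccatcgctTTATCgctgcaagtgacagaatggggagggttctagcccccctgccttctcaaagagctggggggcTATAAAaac
The TATA letters begin 9 bases before the annotated start, and the GATAA letters 121 and 75 bases before it, the second on the opposite strand. Over 32851 RefSeq windows of this length, 12.4% held TATAAA and 22.6% GATAA on either strand. Windows were found for 10 of the 13 called genes. Among these, TATAAA was present in 2 (Pln and Nppa) and GATAA in 4 (Pln, Nppa, Slc25a22 and Acsm5). Slc25a22 had several windows and was counted, here and below, when any of them held the letters. The counts are thus by gene and the shares by window. A match is a description of these letters and not a site.

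Xirp2 encodes a protein that binds actin where heart muscle cells join end to end. It stood at 11.05, 11.01 and 11.31 in NTG and at 11.71, 11.80 and 11.93 in PLB KO, a rise of 0.69 ± 0.11 (adjusted p = 0.0122). Nppa and Xirp2 were the called members of a list of 24 fetal and hypertrophy genes. In that list 21 members had a higher mean in PLB KO and 3 a lower, with a median difference of 0.33 against 0.02 over all genes tested. In 9 of the 24 all knockout arrays lay above all NTG arrays, against 4% of all genes tested. A higher mean was found in 56.8% of all genes tested.

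The other members of the fetal list missed the threshold. Nppb, the brain natriuretic peptide gene, stood at 10.46, 9.62 and 10.79 in NTG and at 11.36, 11.35 and 11.52 in PLB KO, a difference of 1.12 ± 0.257 (adjusted p = 0.177). Acta1, skeletal α-actin, was at 10.55, 10.57 and 11.97 against 11.94, 12.10 and 12.56. Its groups overlapped because NTG replicate 3 reached the level of PLB KO replicate 1. Ankrd1, a stretch-responsive repressor of the nucleus and sarcomere, was at 12.51, 12.25 and 12.65 in NTG and at 13.11, 12.999 and 12.97 in PLB KO, a difference of 0.56 ± 0.115 (adjusted p = 0.0957).

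Myh7, the slow β-myosin heavy chain, differed by 0.42 ± 0.207 and Ccn2, a matricellular growth regulator, by 0.97 ± 0.255, each with all knockout arrays above all NTG arrays. Mybpc2, a myosin-binding protein of fast skeletal muscle, stood at 7.28, 7.62 and 7.51 in NTG and at 8.63, 8.54 and 7.88 in PLB KO (0.88 ± 0.193, adjusted p = 0.145). Actc1, cardiac α-actin, differed by 0.05 and Mef2c, a transcription factor of muscle, by 0.05. Differences in the fetal list ran from -0.14 in Acta2, smooth muscle α-actin, to 2.49 in Myl7, an atrial gene given below.

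In the natriuretic peptide pathway 12 genes were measured and Nppa was called. Mme encodes neprilysin, the protease that breaks down these peptides. It stood at 7.62, 7.53 and 7.62 in NTG and at 7.07, 6.43 and 6.9995 in PLB KO, a difference of -0.76 ± 0.218 (adjusted p = 0.521). Pde9a, which encodes a phosphodiesterase of cyclic GMP, differed by 0.38 ± 0.166, and Npr1, the receptor of Nppa, by -0.13 ± 0.188, neither called.

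Atrial genes stood high on part of the same arrays. Myl7, the atrial regulatory light chain, was at 5.51, 8.58 and 5.25 in NTG and at 9.88, 8.58 and 8.36 in PLB KO, a difference of 2.49 ± 0.843 (adjusted p = 0.788). Myl4, the atrial essential light chain, was at 6.96, 9.52 and 6.87 in NTG and at 10.42, 9.46 and 9.73 in PLB KO. Sln was at 5.13, 6.10 and 4.96 against 5.90, 5.92 and 6.06. In these 3 genes NTG replicate 2 stood with the knockout arrays and the other 2 controls stood lower, so the groups overlapped.

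Bmp10, a further defining atrial gene, lay between 3.92 and 4.49 on all 6 arrays, under the filter on dim genes. The mean of the 3 atrial genes was 5.87, 8.07 and 5.69 in NTG and 8.73, 7.99 and 8.05 in PLB KO. Of 17 atrial markers tested 11 had higher means in PLB KO and 6 lower, with a median of 0.20, and Nppa was the one called. Without Nppa, Myl4 and Myl7, which the fetal list shares with it, the atrial list kept 14 genes, 8 higher and 6 lower, with a median of 0.08. The fetal list without those 3 genes kept 21 members, of which 18 were higher, with a median of 0.18. NTG replicate 2 was the highest control in Nppa (11.40) as in Myl7 and Myl4, and PLB KO replicate 1, the highest array in Myl7 and Myl4, was the lowest knockout array in Nppa (12.17). With the mean of the 3 atrial genes as a covariate Nppa was 1.58 higher (adjusted p = 0.132), and 9 genes were called. That fit kept 6 of the 13 calls and lost 7, namely Abat, Dlx5, Lgals4, Nppa, Sema3a, Tmem47 and Ucp3, whose adjusted p-values lay between 0.106 and 0.201. The part of atrial tissue in these results was not tested beyond that fit.

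Sex-linked transcripts were not balanced. Xist, the RNA of the inactive X chromosome, stood at 9.42, 9.89 and 4.59 in NTG and at 9.42, 9.47 and 9.85 in PLB KO. Uty, a Y-linked gene, was at 3.75, 3.11 and 7.69 in NTG and at 3.16, 3.21 and 2.9986 in PLB KO. NTG replicate 3 was thus the array low in Xist and high in Uty. With the Y-linked genes as a covariate 18 genes were called, and 12 of the 13 kept their call, Lgals4 losing it (adjusted p = 0.0588).

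**Figure D2:**
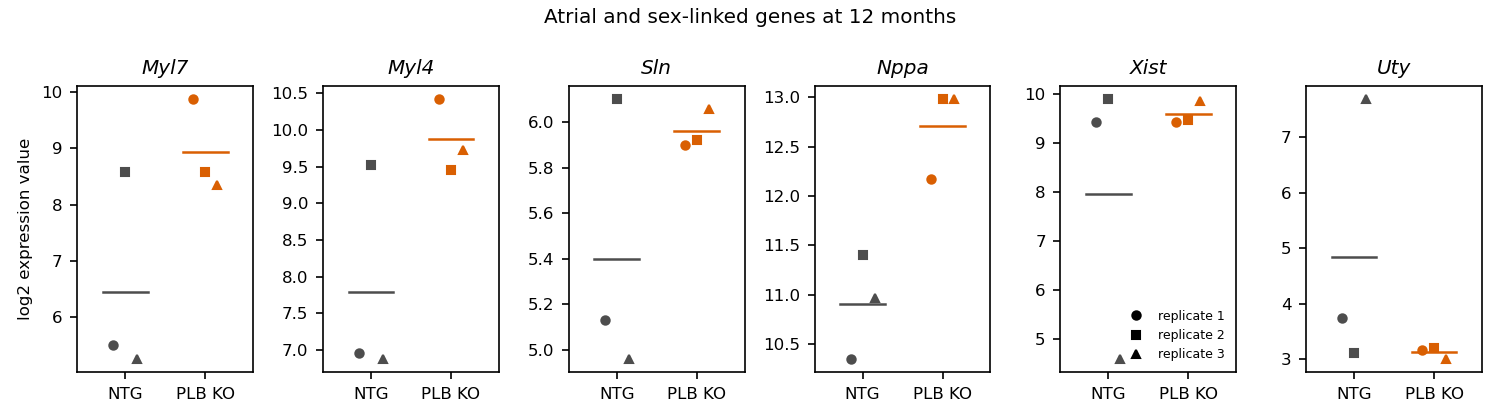
Log2 expression values of Myl7, Myl4, Sln, Nppa, Xist and Uty on the 6 arrays of 12 months, with a line at each group mean and a marker shape for each replicate number. NTG replicate 2 stands with the PLB KO arrays in the first 3 genes, and NTG replicate 3 stands apart in Xist (4.59) and Uty (7.69).

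A pair of called genes belong to signalling by γ-aminobutyric acid (GABA). Kctd16 encodes an auxiliary subunit of GABA-B receptors. It stood at 5.60, 5.76 and 5.56 in NTG and at 6.85, 6.38 and 6.75 in PLB KO, a rise of 1.02 ± 0.149, or 2.03-fold (adjusted p = 0.00802). Abat encodes GABA transaminase, the mitochondrial enzyme that breaks GABA down. It stood at 7.79, 7.96 and 7.93 in NTG and at 8.50, 8.63 and 8.48 in PLB KO, a rise of 0.64 ± 0.108 (adjusted p = 0.0166). The spread within either group was small in both genes beside the gap between the groups.

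The list of 23 genes of GABA and glutamate metabolism and receptors held 1 further called member, Slc25a22, which fell and is described with the mitochondrial genes. The list had 13 higher and 10 lower means and a median difference of 0.01, so its called genes did not go with a shift of the whole list. Gabbr1, a GABA-B receptor subunit, differed by -0.17 ± 0.116.

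Dlx5 encodes a homeobox transcription factor of bone and craniofacial development. It stood at 6.17, 6.16 and 5.74 in NTG and at 6.73, 6.92 and 7.07 in PLB KO, a rise of 0.88 ± 0.157 (adjusted p = 0.0291). Its NTG values lay near the array medians of all probe sets (5.777 to 5.901 over the series) and its PLB KO values above them.

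The genes that fell, beyond Pln, were Ucp3, Slc41a3, Lgals4, Acsm5, Sema3a, Slc25a22 and Tmem47. Ucp3 encodes an uncoupling protein family carrier of the inner mitochondrial membrane, known for following fatty acid supply in muscle. It stood at 8.10, 8.65 and 8.98 in NTG and at 7.53, 6.55 and 7.17 in PLB KO. Ucp3 fell by 1.49 ± 0.277 on the log2 scale (a 2.81-fold difference, adjusted p = 0.0364), and PLB KO replicate 1 was the knockout array nearest to the controls.

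The 250 bases upstream of Ucp3 are shown because it was the called gene with the largest fall after Pln and a known target of the fatty acid receptors of the PPAR family. These nuclear receptors bind such letters as AGGTCA in pairs of neighbouring copies. Single copies of AGGTCA are marked here in capitals. The window is on the plus strand at chr7:100472741-100472990 of GRCm38.p6 (RefSeq).
Ucp3 upstream: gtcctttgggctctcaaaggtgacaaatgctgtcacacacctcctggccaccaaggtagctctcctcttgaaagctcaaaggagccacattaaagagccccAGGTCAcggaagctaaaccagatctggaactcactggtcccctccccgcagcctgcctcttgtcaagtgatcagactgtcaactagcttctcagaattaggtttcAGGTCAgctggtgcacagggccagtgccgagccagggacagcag
AGGTCA begins 149 and 44 bases before the annotated start, so the marked copies are not neighbours and form no such pair. Of the 32851 windows 14.0% held it on either strand. Among the 10 called genes with a window, Xirp2 and Ucp3 held it. The other letters searched were GGAAAA, bound by NFAT factors (20.4% of windows, and Slc25a22, Sema3a and Tmem47), CACGTG, the E-box (6.02%, and Acsm5, Tmem47 and Slc41a3), and TGACGTCA, the cyclic AMP response element (1.55%, and 0 of the 10).

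Acsm5 encodes a mitochondrial medium-chain acyl-CoA synthetase. It stood at 6.70, 7.14 and 6.83 in NTG and at 6.19, 5.63 and 5.68 in PLB KO, and it fell by 1.06 ± 0.189 (adjusted p = 0.0291). Slc25a22 encodes a mitochondrial glutamate carrier. It stood at 7.65, 8.12 and 7.85 in NTG and at 7.22, 6.83 and 7.10 in PLB KO, and it fell by 0.83 ± 0.124 (adjusted p = 0.00802). Ucp3 and Slc25a22 were the called members among 37 mitochondrial carriers, of which 14 had higher and 23 lower means, with a median of -0.02. Slc25a42, a carrier of coenzyme A, was at 7.73, 8.29 and 8.16 in NTG and at 7.37, 7.49 and 7.37 in PLB KO without a call (-0.65 ± 0.154, adjusted p = 0.209).

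Genes of fatty acid uptake and oxidation had lower means in PLB KO throughout their list of 29, against 43.2% of all genes tested. Ucp3 was the one called, and the median difference was -0.25. In 8 of the 29 all knockout arrays lay below all NTG arrays, against 2.72% of all genes tested. Without Ucp3 the median of the remaining 28 was also -0.25. The mean level of the list was 10.50, 10.64 and 10.56 in NTG and 10.40, 10.12 and 10.16 in PLB KO. The groups did not overlap, and PLB KO replicate 1 was the knockout array nearest to the controls.

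Single steps of the pathway show the size of these differences. Cpt1a, which links fatty acids to carnitine for entry into mitochondria, stood at 8.34, 8.71 and 8.51 in NTG and at 8.23, 7.66 and 8.18 in PLB KO (-0.49 ± 0.145, adjusted p = 0.553). Cpt2, which returns them to coenzyme A inside, stood at 9.47, 9.97 and 9.82 against 9.12, 9.26 and 9.36 (-0.51 ± 0.163, adjusted p = 0.721). Eci1, which shifts double bonds so that unsaturated chains can be oxidized, was at 10.83, 10.76 and 10.86 in NTG and at 10.52, 10.27 and 10.31 in PLB KO (-0.45 ± 0.108, adjusted p = 0.209). In each of these the groups did not overlap, and none was called. The uptake genes Cd36 (-0.16), Fabp3 (-0.25) and Lpl (-0.13) and the medium-chain dehydrogenase Acadm (-0.18) lay closer to 0.

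Of 27 PPAR target genes 26 had a lower mean in PLB KO, against 43.2% of all genes tested, with a median of -0.35. The 15 of them outside the fatty acid list gave 14 lower means and also a median of -0.35. Acot2, a mitochondrial thioesterase, stood at 9.75, 10.11 and 10.14 in NTG and at 9.51, 8.66 and 9.10 in PLB KO (-0.91 ± 0.204, adjusted p = 0.165). Ech1, which encodes a dienoyl-CoA isomerase, stood at 12.21, 12.16 and 12.08 against 11.97, 11.26 and 11.42 (-0.60 ± 0.166, adjusted p = 0.444). Pdk4, the kinase that turns off pyruvate dehydrogenase, was at 11.17, 11.96 and 11.51 against 11.56, 10.68 and 10.22. In Pdk4 the groups overlapped through PLB KO replicate 1.

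The rest of energy metabolism had medians closer to 0. In oxidative phosphorylation 52 of 55 genes had a lower mean, by a median of -0.11, and in the tricarboxylic acid cycle 17 of 18, by -0.10. Over all genes tested 43.2% had a lower mean. In either list 0 were called by limma, and 1 gene of each had an unadjusted p under 0.05. Glycolysis and glucose uptake had 12 higher and 17 lower means of 29, with a median of -0.03. Its lowest member was Fbp2, muscle fructose bisphosphatase, at 7.73, 8.17 and 7.51 in NTG and 7.18, 6.44 and 6.30 in PLB KO (-1.16 ± 0.263, adjusted p = 0.165).

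Slc41a3 encodes a magnesium transporter of the mitochondrial membrane. It stood at 9.47, 9.48 and 9.38 in NTG and at 8.59, 7.80 and 8.53 in PLB KO, and it fell by 1.14 ± 0.213 (adjusted p = 0.0364). The NTG arrays agreed closely in this gene and the knockout arrays did not. Of 13 magnesium transport genes it was the one called, with 9 lower means and a median of -0.08.

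Sema3a encodes a secreted guidance cue that patterns the sympathetic nerves of the heart. It stood at 6.51, 6.66 and 6.95 in NTG and at 6.14, 5.83 and 5.62 in PLB KO, and it fell by 0.84 ± 0.141 (adjusted p = 0.0166). Among 26 semaphorins and their receptors it was the one called, and the list's median was 0.04. Lgals4, a galectin best known from the gut, was at 7.16, 7.74 and 7.57 in NTG and at 6.71, 6.64 and 5.79 in PLB KO, and fell by 1.11 ± 0.208 (adjusted p = 0.0364). Tmem47, a membrane protein of cell junctions, was at 7.84, 7.94 and 7.59 in NTG and at 7.26, 6.94 and 6.83 in PLB KO, and fell by 0.78 ± 0.146 (adjusted p = 0.0364).

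Among the genes nearest to the threshold that were not called, Mylk4, of the myosin light chain kinase family, stood at 10.36, 10.07 and 10.34 in NTG and at 9.25, 8.89 and 9.19 in PLB KO (-1.15 ± 0.229, adjusted p = 0.0727). The others were Ankrd1, Cst6 (0.69), which encodes a cystatin, Ccdc136 (0.48), the transcription factor gene Etv5 (0.86), Mybpc2, the desaturase gene Scd4 (-0.74), Acot2, Plbd1 (-0.84) and Fbp2. Their adjusted p-values ran from 0.0727 to 0.165. In all 10 the arrays of the groups did not overlap, which choosing genes by low p favours. Over all genes tested the knockout arrays lay wholly above in 4% and wholly below in 2.72%.

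Calcium handling beyond the pump gave 0 calls in limma. Of 23 genes of calcium release and storage 8 had higher and 15 lower means, with a median of -0.06 and 2 genes at an unadjusted p under 0.05 (Ryr2 and Fkbp1b). Ryr2, the release channel of cardiac muscle, was at 12.03, 12.14 and 11.87 in NTG and at 11.83, 11.55 and 11.83 in PLB KO (-0.27 ± 0.123). Fkbp1b, which encodes a protein bound to that channel, was at 4.10, 4.26 and 4.76 in NTG and at 4.92, 4.86 and 4.77 in PLB KO (0.48 ± 0.215). Casq2, the calcium buffer of the store, differed by -0.02 ± 0.18.

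Sarcolemmal and mitochondrial calcium transport had 8 higher and 8 lower means of 16. Cacna1c, the L-type channel that admits calcium at each beat, was at 10.24, 10.39 and 10.32 in NTG and at 9.90, 10.10 and 10.08 in PLB KO (-0.30 ± 0.0989, adjusted p = 0.782). Slc8a1, the sodium-calcium exchanger, differed by -0.36 ± 0.143. Of 28 genes of β-adrenergic signalling 13 were higher and 15 lower in the mean, with a median near 0, and Gnao1, a G protein α subunit, had the lowest p. It stood at 7.62, 8.03 and 8.09 in NTG and at 8.53, 8.47 and 8.64 in PLB KO (0.63 ± 0.154, adjusted p = 0.217). Of 24 cardiac ion channels 19 had lower means, against 43.2% of all genes tested, with a median of -0.14. Scn4b, a sodium channel β subunit, was at 7.32, 7.93 and 8.23 in NTG and at 6.60, 6.94 and 7.13 in PLB KO (-0.94 ± 0.214, adjusted p = 0.167).

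Extracellular matrix genes had higher means in 46 of 50 cases, against 56.8% of all genes tested. Their median was 0.27, and 0 were called by limma (4 at an unadjusted p under 0.05). Postn, the matrix protein periostin, stood at 7.76, 8.84 and 8.37 in NTG and at 8.90, 8.62 and 9.35 in PLB KO, so its groups overlapped. All 10 fibroblast markers had higher means, by a median of 0.31, and none had knockout arrays wholly above the NTG arrays. In whole tissue, more cells of a type and more RNA in each of them cannot be told apart. Endothelial markers (median -0.01 over 12 genes), macrophage markers (0.03 over 14) and ventricular markers (0.01 over 14) lay near the median of all genes.

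**Figure D3:**
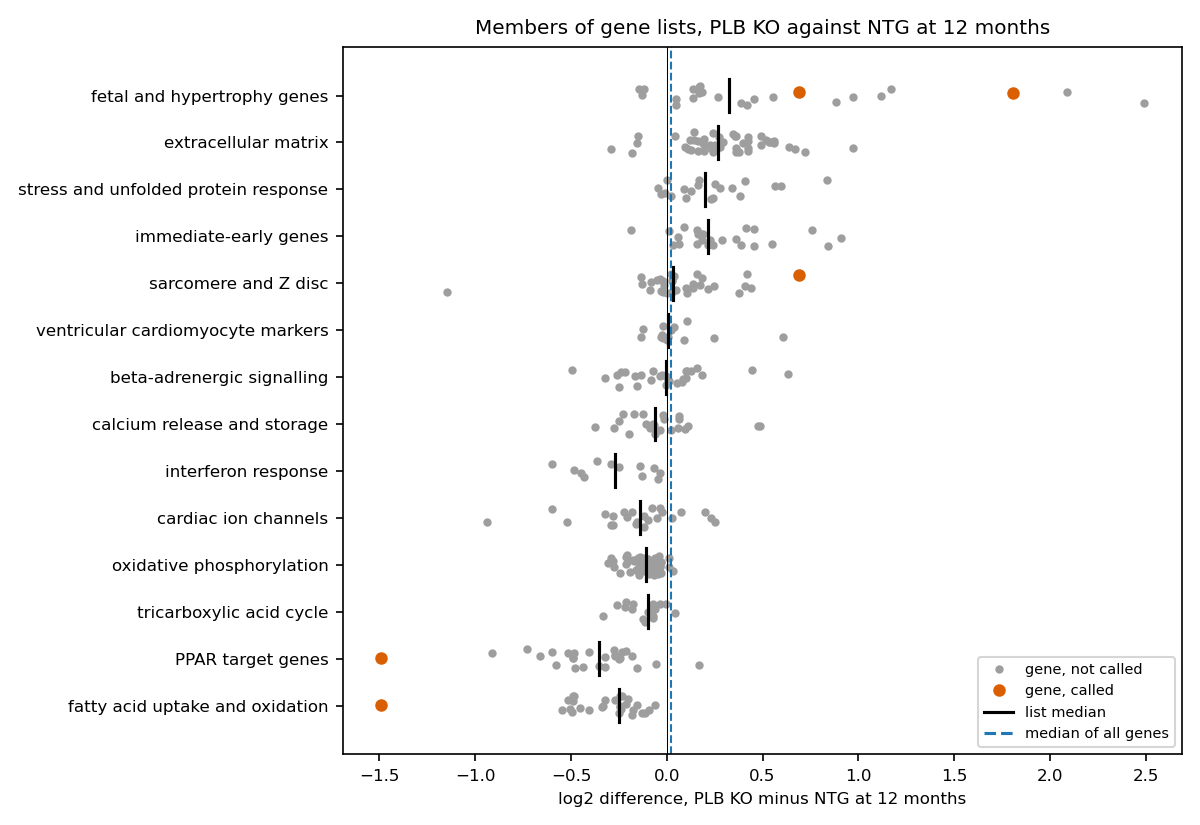
Log2 differences of PLB KO minus NTG at 12 months for the members of the gene lists, with a point for each gene, called genes in orange, a bar at each list's median and a dashed line at the median of all genes tested (0.02). The fatty acid list lies wholly below 0, and the fetal list reaches from -0.14 to 2.49.

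Single arrays stood apart in further lists. Immediate-early genes are the first that cells switch on after a stimulus. They had a mean level of 7.90, 6.82 and 7.08 in NTG and of 7.11, 8.57 and 6.98 in PLB KO, with PLB KO replicate 2 the highest. The stress list was also highest on PLB KO replicate 2, at 9.42. On that array the endothelial gene Kdr was at 8.70, against 9.98 to 10.47 on the other 5. Interferon response genes were highest on NTG replicate 1, at 6.90 against 6.12 and 6.06 on the other controls. What these arrays add to the called genes was not tested beyond leaving each out.

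The number of calls depended on which array was left out. Without PLB KO replicate 1 all 13 genes kept their call and 17 were called. Without PLB KO replicate 2 there were 2 calls (Pln and Kctd16), both among the 13. Without PLB KO replicate 3 there were 3 calls, 2 of them among the 13 (Pln and Slc25a22). Without NTG replicate 1 there were 12 calls, of which 9 were among the 13, with Abat, Slc41a3, Tmem47 and Xirp2 lost. Without NTG replicate 2 there were 3 calls and without NTG replicate 3 there were 5, all among the 13. The adjusted p-values of the called genes that dropped out lay between 0.0519 and 0.412, and 0 of the 13 turned sign. Kctd16 kept its call in 5 of the 6 fits (0.97, adjusted p = 0.0531, without PLB KO replicate 3). Nppa lost it without PLB KO replicate 2 (1.67, adjusted p = 0.0903) and replicate 3 (1.67, adjusted p = 0.0887). Slc25a22 was at -0.71 without PLB KO replicate 2 (adjusted p = 0.0903) and at -0.70 without NTG replicate 2 (adjusted p = 0.0724). Ucp3 was at -1.22 without PLB KO replicate 2 (adjusted p = 0.412). From the 6 arrays alone Pln was the single call and 410 genes had an unadjusted p under 0.05.

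The other 18 arrays show on which side of the comparison each called gene stood out. In 6 of the 8 genes that fell (Slc25a22, Sema3a, Acsm5, Ucp3, Lgals4 and Slc41a3) the 3 NTG arrays of 12 months lay above all 21 other arrays of the series. Over all genes tested 21 did so (0.132%). In 0 of the 8 did the knockout arrays lie below all others, as they did in 0.044% of all genes. These counts use the arrays of the comparison itself and were taken after the values were seen, so they describe the called genes and test nothing.

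Ucp3 makes the pattern plain. Its NTG values at 12 months were 8.10 to 8.98, and the 18 arrays outside the comparison ran from 6.12 to 7.19. The group mean was 8.58 ± 0.446 (SD, n = 3) in NTG and 7.08 ± 0.5 in PLB KO at 12 months, against 6.66 ± 0.0779 in NTG and 6.85 ± 0.0972 in PLB KO at 4 months. Slc25a22 was at 7.87 ± 0.237 in NTG and 7.05 ± 0.202 in PLB KO at 12 months and between 7.10 and 7.22 in the mean of each of the other 6 groups. Slc41a3 ran from 9.38 to 9.48 in NTG at 12 months and from 7.45 to 8.70 on the 18 outside arrays.

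The PPAR target list was also highest in NTG at 12 months. Averaged over its genes it stood at 9.70 ± 0.133 (SD over 3 arrays) in NTG and 9.28 ± 0.182 in PLB KO at 12 months, and 9.34 ± 0.156 and 9.25 ± 0.0914 at 4 months. The fatty acid list was at 10.57 ± 0.0739 in NTG and 10.22 ± 0.152 in PLB KO at 12 months, and at 10.44 ± 0.0923 and 10.28 ± 0.0914 at 4 months. Among the 21 genes in which NTG at 12 months lay above all other arrays were also Ehhadh (-0.49), Abcd3 (-0.44) and Nudt7 (-0.41), which encode proteins of the peroxisome, where long fatty acids are shortened. These 3 were picked after their values were seen, and none was called (adjusted p = 0.517, 0.517 and 0.519).

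In Abat and Dlx5, both called higher, the 3 PLB KO arrays of 12 months lay above all 21 others, as in 13 genes of all tested (0.0817%). Dlx5 was at 6.91 ± 0.172 (SD, n = 3) in that group and at 5.99 to 6.20 in the means of the other 7. Abat was at 8.54 ± 0.0815 there and next highest in Tm180/PLB KO at 12 months, at 8.30 ± 0.0391. Nppa and Xirp2 stood lowest in the NTG groups of both ages. Nppa was at 10.90 ± 0.529 and 10.50 ± 0.556 in NTG at 12 and 4 months, at 12.71 ± 0.467 and 11.96 ± 0.07 in PLB KO, and between 12.84 and 13.08 in the 4 groups with the Tm180 transgene. Kctd16 was likewise lowest in NTG, at 5.64 ± 0.105 and 5.76 ± 0.184, and from 6.31 to 6.91 in the means of the other 6 groups.

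**Figure D4:**
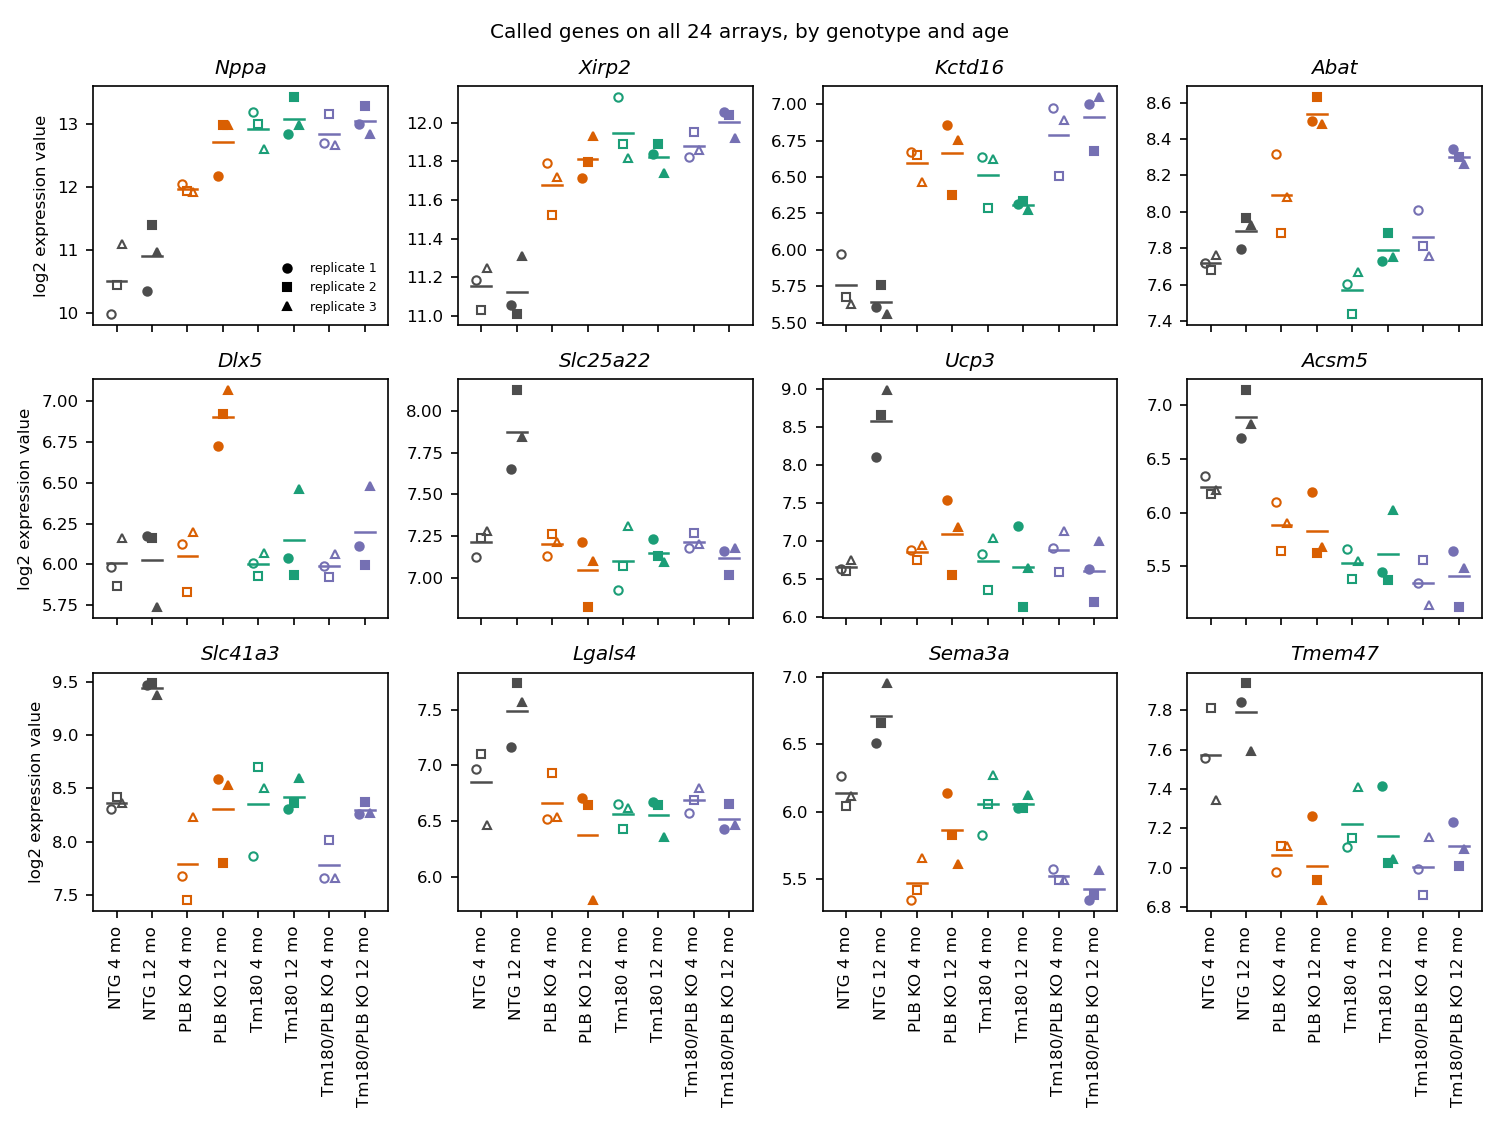
Log2 expression values of the called genes other than Pln on all 24 arrays, by genotype (colour) and age (open at 4 months, filled at 12), with a point for each array and a line at each group mean. The NTG arrays of 12 months stand above the rest in Ucp3 (8.10 to 8.98), Slc25a22 and Slc41a3, and the NTG arrays of both ages stand low in Nppa and Kctd16.

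The same loss of phospholamban was measured on other arrays at 4 months. There, Pln fell by 5.86 ± 0.324 and was the single gene called (0.00628% of those tested), with 492 genes (3.09%) at an unadjusted p under 0.05. The replicate numbers of these 6 arrays paired them by the rule given in the processing, and a model blocked on that number called 10 genes. Kctd16 was higher by 0.84 ± 0.149 (adjusted p = 0.122), Nppa by 1.46 ± 0.28 (adjusted p = 0.162) and Xirp2 by 0.52 ± 0.11 (adjusted p = 0.267). Sema3a differed by -0.67 ± 0.141 (adjusted p = 0.267), Tmem47 by -0.51 ± 0.146 and Abat by 0.37 ± 0.108, both with an adjusted p of 0.993. These 6 genes stood on the same side of NTG at both ages. All 3 Y-linked genes had a higher mean in PLB KO than in NTG at 4 months, with a median difference of 3.39. At 12 months all 3 had a lower mean, with a median difference of -1.73. With the Y-linked covariate Pln stayed the single call at 4 months, and 237 genes had an unadjusted p under 0.05 in limma. What the Y-linked difference adds to the comparison of the ages was not tested beyond that covariate.

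For the remaining called genes the younger hearts gave less. Slc25a22 differed by -0.01 ± 0.124 at 4 months, Dlx5 by 0.05 ± 0.157, Ucp3 by 0.19 ± 0.277 and Lgals4 by -0.19 ± 0.208. Acsm5 and Slc41a3 lay between, at -0.36 ± 0.189 and -0.58 ± 0.213. In the test of the difference between ages 0 genes were called by limma, and 275 had an unadjusted p under 0.05 (1.73%). For Slc25a22 that difference was -0.81 ± 0.175 (unadjusted p = 0.000145 in limma), for Ucp3 -1.69 ± 0.392 (unadjusted p = 0.000331) and for Dlx5 0.83 ± 0.222 (unadjusted p = 0.00121). Their adjusted p-values in limma were 0.9998, so no called gene was shown to differ between the ages. Of the 13 called genes 12 had the sign of 12 months at 4 months, Ucp3 being the exception. These include Pln, and Slc25a22 and Dlx5, whose differences at 4 months were smaller than their SE. The share of all genes that kept their sign was not counted.

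On the Tm180 background at 12 months the knockout was read from Tm180/PLB KO against Tm180, on arrays that the main comparison does not share. Pln fell by 7.39 ± 0.324 and was again the single gene called, with 213 genes (1.34%) at an unadjusted p under 0.05. The numbers paired these arrays too, and the block also gave 1 call, Pln. The values given here are again those of the model without the block. Abat was higher by 0.51 ± 0.108 (adjusted p = 0.712), Kctd16 by 0.60 ± 0.149 (adjusted p = 1) and Sema3a differed by -0.63 ± 0.141 (adjusted p = 0.712). The same 3 genes had been on the same side of their controls at 4 months. Of the 13 called genes 12 had the sign of the main comparison on the Tm180 background, Nppa being the exception. These include Pln, and Slc25a22, Ucp3, Lgals4, Dlx5 and Tmem47, which lay near 0 there. The share of all genes that kept their sign was not counted here either.

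Nppa differed by -0.04 ± 0.28 on the Tm180 background, from 13.08 ± 0.311 (SD, n = 3) in Tm180 to 13.04 ± 0.223 in Tm180/PLB KO. The difference between the backgrounds was 1.85 ± 0.395 for Nppa (unadjusted p = 0.000139 in limma, adjusted p = 0.9999). Slc25a22 (-0.03), Ucp3 (-0.05), Lgals4 (-0.04), Dlx5 (0.05) and Tmem47 (-0.05) lay near 0. For the difference between backgrounds 0 genes were called by limma and 289 had an unadjusted p under 0.05 (1.82%). All 3 Y-linked genes had a lower mean in Tm180/PLB KO than in Tm180, with a median difference of -1.58. What this adds was not tested beyond the Y-linked covariate, with which Pln stayed the single call on that background.

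**Figure D5:**
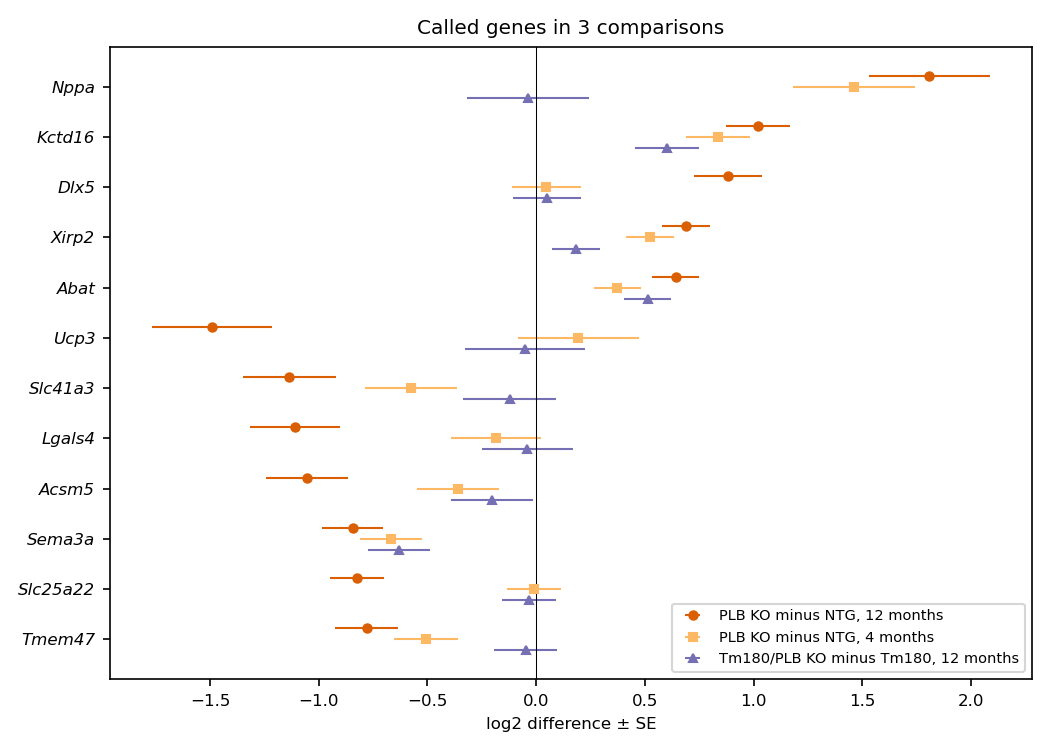
Log2 differences with their SE for the called genes other than Pln in PLB KO minus NTG at 12 months (circles), PLB KO minus NTG at 4 months (squares) and Tm180/PLB KO minus Tm180 at 12 months (triangles). Of the 13 called genes, Pln included, 12 keep the sign of the first comparison in each of the others. The exception is Ucp3 at 4 months and Nppa on the Tm180 background. Ucp3, Slc25a22 and Dlx5 lie near 0 outside the first.

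Of all genes tested, 48.1% had a higher mean in PLB KO at 4 months and 53.4% in Tm180/PLB KO on the Tm180 background. The fatty acid list had a median of -0.15 with 3 of 29 higher at 4 months and of -0.05 with 4 of 29 higher on the Tm180 background. The fetal list had a median of 0.24 with 21 of 24 higher at 4 months and of -0.03 with 11 of 24 higher on the Tm180 background. Fibroblast markers had a median of -0.28 with 1 of 10 higher at 4 months and of -0.05 with 3 of 10 higher on the Tm180 background, and extracellular matrix genes had -0.15 with 19 of 50 higher and -0.07 with 15 of 50 higher. In oxidative phosphorylation 49 of 55 genes had a higher mean with the knockout on the Tm180 background, against 3 of 55 without the transgene. Over all genes but Pln, the differences at 12 months correlated with those at 4 months at 0.177 and with those on the Tm180 background at 0.0896, across genes, which are not independent replicates.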

How the data were processed

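Left ventricular RNA of 24 samples was measured on Affymetrix arrays. The deposited values are on a log2 scale. The submitters' processing notes name RMA, a method that corrects background, normalizes arrays and summarises probes, as the authors' tool. The sources used here give no RMA version, settings or genome build. The table held 35557 probe sets, with array medians from 5.777 to 5.901. The platform annotation named the probe sets to which it gave 1 symbol (21789; 1621 had several and 12147 none), 21698 of them matched by Entrez number to RefSeq, and the brightest of a gene was used (19938 genes). Genes above 4.83, the 25th percentile, on at least 3 arrays were kept (15918). Values were not normalized again.

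Groups came from the titles. One Tm180/PLB KO sample of 4 months has a source name that gives 12; it enters here through the pooled variance and the levels given for its group. A limma 3.58.1 model (R 4.3.3) of the 8 group means was fitted to all arrays, with 16 residual degrees of freedom, and tested on simulated data. All p-values of genes are limma's, adjusted by the Benjamini-Hochberg method over all genes tested. Arrays of the main groups correlated at 0.967 to 0.982 within a group and at 0.964 to 0.989 between the groups.

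Lists are described by counts and medians without a test. The comparison, lists and named genes were chosen with earlier results of these data known. Named were Pln, Atp2a2 and Nppa, all called genes, the next 10 by p, and the members of each list with the lowest p. Replicate numbers pair arrays where every same-numbered pair of deviations from the group means correlates over 0.1. They were 0.416, 0.386 and 0.596 for PLB KO against NTG at 4 months and 0.653, 0.732 and 0.723 for Tm180/PLB KO against Tm180. Alternatives were a replicate block, other dim filters, a trended robust prior, fewer groups in the fit, median centring, array weights, mean probe sets, Y-linked or atrial covariates and leaving out each array.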

Additional observations from a re-analysis of the deposited data

How the results depend on the processing

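For PLB KO against NTG at 12 months the 13 calls became 49 with the replicate block, 1 from the compared arrays alone, 1 from the arrays of that age alone and 9 with the atrial covariate, and 2 to 17 without each array in turn. The replicate numbers did not pair these arrays (same-number correlations of 0.27, -0.104 and 0.647), and the cause of the change under the block was not tested. No dim filter, the 50th percentile, the trended prior, centring, array weights, mean probe sets and the Y-linked covariate gave 12 to 18. At 4 months the 1 call became 10 with the block, 234 with array weights and 1 to 2 without each array. On the Tm180 background it stayed 1, and 1 to 5 without each array. The differences between ages gave 0 throughout and those between backgrounds 0 to 3 without each array. Pln was called in every fit, from -7.79 to -7.29. With the atrial covariate these uncalled genes turned sign: Atp2a1 0.0155, Sln -0.169, Mrln 0.0134, Hax1 0.0177, Ppp1r1a -0.0115, Ppp1cb -0.0574 and Myl7 -0.0531, and with array weights S100a1 (-0.0292). Sln and Myl7 are themselves part of the atrial covariate, so their fall towards no difference in that fit was built in. Leaving out each array gave ranges that span 0 for Atp2a3 (-0.302 to 0.025), Mrln (-0.21 to 0.00152), S100a1 (-0.11 to 0.29), Ppp1r1a (-0.018 to 0.0951), Ppp1r2 (-0.17 to 0.20), Ppp1r3a (-0.319 to 0.0542), Ppp1ca (-0.00343 to 0.11), Ppp1cb (-0.038 to 0.0983), Ppp1cc (-0.0362 to 0.0888) and Hspb6 (-0.00852 to 0.10), and the cause was not tested. Of the values of named genes under these alternatives, 1351 kept direction and side of the threshold, 78 lost a call, 30 gained one and 24 turned sign. All 78 losses fell on the 13 called genes, since only a called gene can lose a call. The 1351 include the uncalled genes that stayed uncalled, so they do not measure how stable the calls were.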
